A study of Danio rerio with 21 samples.

Results

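Lens crystallin genes were taken from the gene counts of whole zebrafish larvae by symbol, as all rows whose name begins with cryaa, cryab, cryba, crybb, crygm, crygn, crygs or crygx. Of 36351 genes counted, 55 had such a symbol, and the 51 with 10 or more counts in at least 3 samples were kept: 3 of 3 of the alpha class, 13 of 13 of the beta class and 35 of 39 of the gamma class. The cryptochromes of the circadian clock, crybg1a, crybg1b, crybgx, cryl1, crym, cryz and cryzl1 have similar names and were not taken. RNA came from pools of 4 to 6 whole larvae of the EK strain, with 3 pools in each of 7 groups and 21 in all. All mutant alleles were of pomgnt2, which encodes a glycosyltransferase that extends the sugar chain of alpha-dystroglycan. The allele was made with CRISPR-Cas9 and joins an insertion and a deletion in exon 1 to a deletion in exon 2, all of which shift the reading frame. MZKO (-/-) and MHet (+/-) larvae came from crosses of -/- females with +/- males and were sampled at 5 and 10 days post-fertilization (dpf). ZKO (-/-), Het (+/-) and WT (+/+) larvae had +/- females as mothers, from crosses of +/- with +/- fish, and were sampled at 5 dpf. The female parent's genotype and the type of cross therefore cannot be told apart. The larvae were genotyped at 4 dpf, and those kept to 10 dpf were housed by genotype. Own genotype and housing therefore cannot be told apart at 10 dpf. All pools of 5 dpf are labelled batch 1 and all pools of 10 dpf batch 2, so age and batch cannot be told apart.

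Crystallins are the main soluble proteins of the lens, and their dense and ordered packing gives the lens its transparency and refractive power. The alpha-crystallins belong to the small heat shock proteins and act as chaperones that keep other lens proteins in solution, whereas the beta- and gamma-crystallins share a double Greek key domain and serve as structural proteins of the fibre cells. Fish carry many copies of gamma M-crystallins, which are rich in methionine and pack densely in the hard spherical lens of aquatic vertebrates. Of the alpha class in zebrafish, cryaa is expressed mainly in the lens, cryaba is the lens-restricted duplicate of the mammalian alpha B gene and cryabb is the duplicate that is expressed more widely.

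In a RefSeq gene table of another assembly (GRCz12tu), where all 55 symbols were found, 42 of them lay in runs of 2 or more neighbouring crystallin genes. A single run held 32 gamma genes, 30 of them kept, with 5 other protein coding genes in between, and it contained all 19 kept genes named crygm2d. Another 5 runs were pairs, cryba1l2 with crybb1l2, crybb1 with cryba4, crybb1l1 with cryba1l1, cryba1a with crybb1l3 and crygmx with crygmxl2. The crygm2d genes are close copies of each other, and how reads that match several genes were counted is not given in the sources used here. The split of reads between single crygm2d genes is therefore uncertain, and the summed level of the class is given beside them. Levels were compared between samples only, and not between genes, because transcript lengths were not used here.

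The total of gene counts lay between 16959935 and 22439739 in the 21 pools. Levels are given as CPM, a gene's count relative to the library total after scaling by edgeR's TMM factor, and a count of 3 was worth 0.133 to 0.196 CPM. This floor covers counting error only. The pomgnt2 transcript was counted in all genotypes and its level checks no label: at 5 dpf it was at 18.4 to 18.7 CPM in MZKO, above 14.1 to 17.7 CPM in MHet, and at 17.6 to 19.5 CPM in ZKO, 16.7 to 17.7 CPM in Het and 16.7 to 18.2 CPM in WT, and at 10 dpf it was at 13 to 19.9 CPM in MZKO and 15.4 to 19.8 CPM in MHet. Of 18 listed lens fibre genes other than crystallins, 15 were among the genes counted, and all 15 had counts in every group. This checks no label of genotype or age. The MHet pools of 10 dpf were spread in lens genes, with summed crystallin levels of 25913, 34198 and 21468 CPM, and replicate 3 had the lowest depth of all pools. The pools are labelled as separate samples, and replicate pools differed by more than counting error, with chi-square values of 6.28 to 23 per gene.

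The 51 crystallins together took 0.971% to 3.14% of all counts on genes. At 5 dpf their summed level was 10244, 10668 and 9159.5 CPM in MZKO pools, 14929, 12374 and 14187 CPM in MHet, 22866, 17754 and 20599 CPM in ZKO, 21056, 21676 and 18466 CPM in Het and 15839.5, 17031 and 19658 CPM in WT. The groups with a -/- female parent had the lowest levels. All MZKO pools lay below all MHet pools, and all MHet pools lay below all ZKO, Het and WT pools. In bulk RNA of whole larvae, fewer lens cells and less crystallin RNA per lens cell cannot be told apart. At 10 dpf the sums were 27455, 27439 and 30869.5 CPM in MZKO and 25913, 34198 and 21468 CPM in MHet, and the groups overlapped.

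The beta class followed the same order. Its 13 genes summed to 3564 ± 460.0 CPM in MZKO, 4867 ± 457 CPM in MHet, 7556 ± 1183 CPM in ZKO, 7469 ± 755 CPM in Het and 6189.9 ± 143 CPM in WT at 5 dpf (SD, n = 3 each). The 35 gamma genes summed to 6433 ± 333 CPM in MZKO, 8936 ± 888 CPM in MHet, 12786 ± 1523 CPM in ZKO, 12857 ± 1010.5 CPM in Het and 11258 ± 1959 CPM in WT (SD, n = 3 each). The gamma-to-beta ratio of these sums was 1.71 to 1.96 in the means of the 7 groups. The alpha class, nearly all of whose counts were those of cryaa, summed to 26.9 ± 2.48 CPM in MZKO and 27.2 ± 2.65 CPM in MHet, against 64.5 ± 7.49 CPM in ZKO, 73.7 ± 9.3 CPM in Het and 61.4 ± 7.24 CPM in WT (SD, n = 3 each). Its share of crystallin counts was 0.268% ± 0.0124 in MZKO and 0.197% ± 0.0117 in MHet at 5 dpf, and 0.316% to 0.361% in the mean of ZKO, Het and WT.

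**Figure D1:**
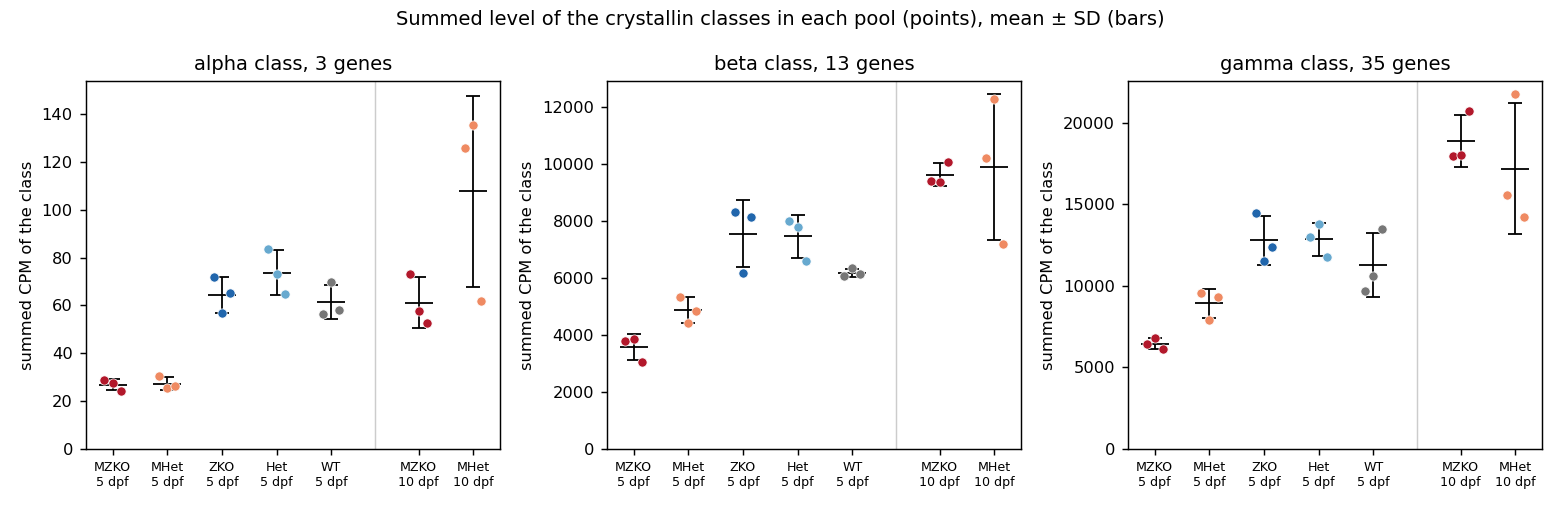
Summed CPM of the alpha (3 genes), beta (13 genes) and gamma (35 genes) crystallins in every pool, by genotype and age. Points are pools and bars are the mean ± SD of 3 pools. At 5 dpf the beta and gamma sums were lowest in MZKO (3564 and 6433 CPM) and next lowest in MHet (4867 and 8936 CPM), whereas the alpha sums of MZKO and MHet overlapped.

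Among single genes, cryaa had 28, 26.8 and 23.3 CPM in MZKO and 29.3, 24.8 and 25.5 CPM in MHet, against 71.7, 56.6 and 64.8 CPM in ZKO, 83.2, 72.8 and 64.5 CPM in Het and 56.4, 69.1 and 58 CPM in WT at 5 dpf. Every pool with a -/- female parent was below every pool with a +/- female parent, and MZKO and MHet overlapped. In the beta class, per-pool values are given for the 3 genes with the most counts. The gene crybb1l2 had 647, 647 and 513 CPM in MZKO, 968, 824 and 856 CPM in MHet, 1653, 1210.1 and 1592 CPM in ZKO, 1621, 1442 and 1308 CPM in Het and 1226, 1247 and 1309 CPM in WT. Here the 3 levels were separate, MZKO below MHet and MHet below the rest. The gene crybb1 had 710.1, 780.1 and 646 CPM in MZKO, 1152, 953 and 1007 CPM in MHet, 1420.3, 1066 and 1457 CPM in ZKO, 1308, 1319.7 and 1161 CPM in Het and 1115, 1109.5 and 1194 CPM in WT. In this gene MZKO stood apart while MHet overlapped with ZKO and WT. The beta gene crybb1l1 showed the opposite arrangement, with MZKO at 638, 648 and 491 CPM near MHet at 742, 641 and 720.4 CPM, and both below ZKO at 1302, 925 and 1396 CPM, Het at 1297, 1238 and 1057 CPM and WT at 919.8, 1021 and 897 CPM.

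The gamma genes were taken in the same way. The gene crygm2d8 had 601, 574 and 572 CPM in MZKO, 903, 762 and 833 CPM in MHet, 1368, 1009 and 1168 CPM in ZKO, 1162, 1276 and 1011 CPM in Het and 806, 997 and 1401 CPM in WT at 5 dpf. WT pools of this gene spread widely and overlapped with MHet. The gene crygm2d5 had 504, 556 and 457 CPM in MZKO, 719, 623 and 756 CPM in MHet, 1164, 895 and 972 CPM in ZKO, 1019, 1138 and 955 CPM in Het and 724, 809.7 and 869.8 CPM in WT. The gene crygm2d10 had 372, 372 and 391 CPM in MZKO, 612, 522 and 618 CPM in MHet, 927, 740.2 and 726 CPM in ZKO, 769, 839.7 and 767 CPM in Het and 629.9, 683 and 893 CPM in WT. In crygm2d5 and crygm2d10 MZKO pools lay below all others, and MHet pools lay below ZKO and Het pools. Of the 30 crystallins with a mean of 100 CPM or more (8 beta and 22 gamma), 30 had their lowest 5 dpf group mean in MZKO and the next lowest in MHet. Over all members tested at 5 dpf, the same order was found in 1 of 2 alpha, 9 of 12 beta and 26 of 32 gamma genes. It was found in 11.7% of the 24846 genes tested at 5 dpf. The 30 members include all 19 crygm2d genes, whose reads cannot be split between them with certainty.

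**Figure D2:**
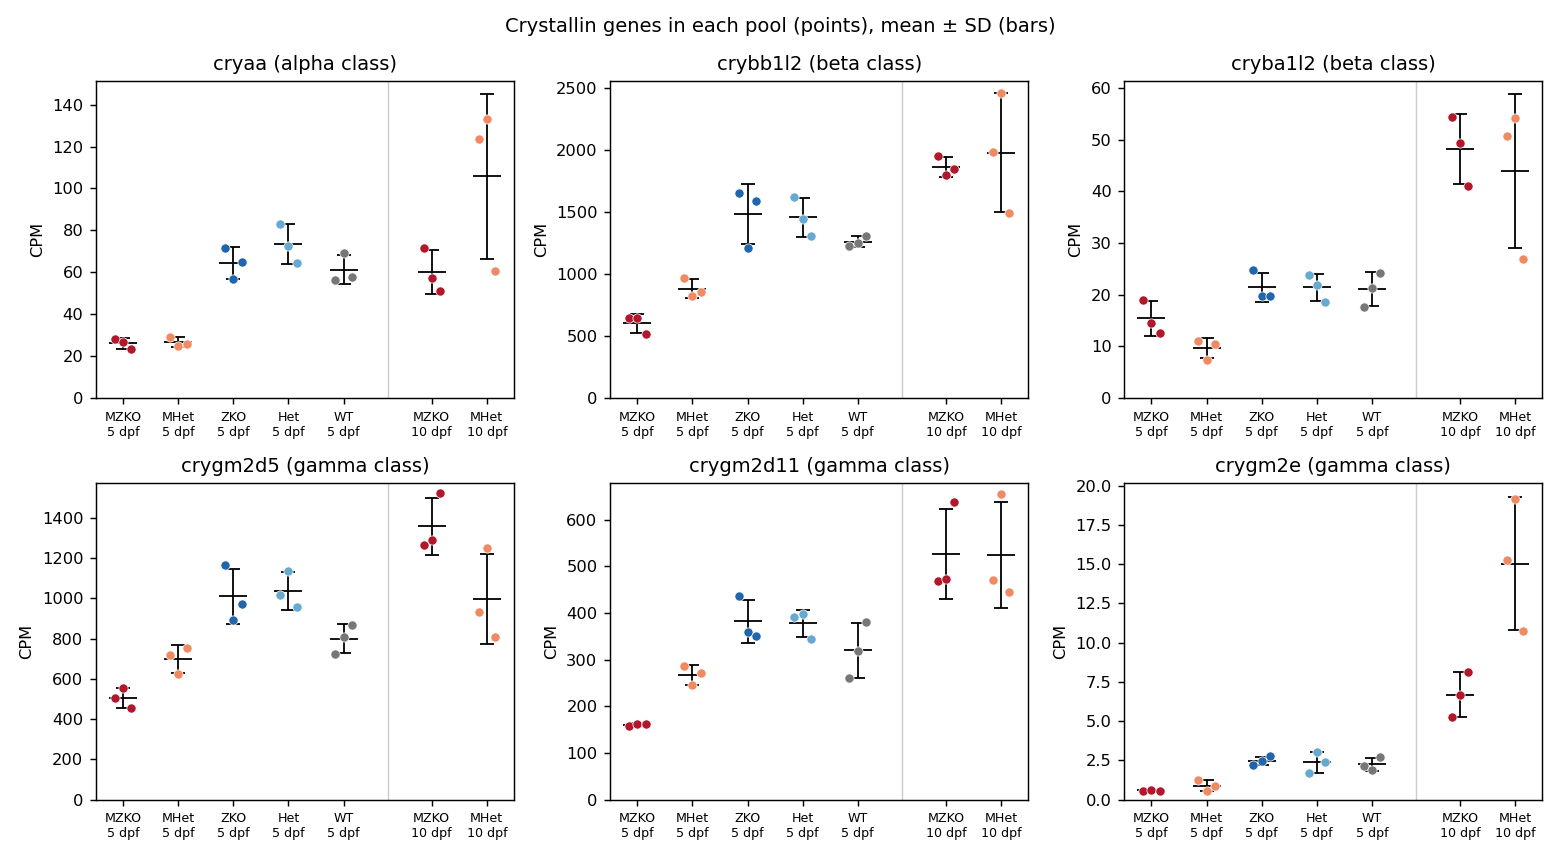
CPM of 6 crystallin genes in every pool, by genotype and age. Points are pools and bars are the mean ± SD of 3 pools. In cryaa the MZKO and MHet pools of 5 dpf overlap at 23.3 to 29.3 CPM, in crygm2d11 the MZKO pools (158 to 163 CPM) lie below the MHet pools (245 to 286 CPM), and in cryba1l2 the MZKO pools (12.6 to 19 CPM) lie above the MHet pools (7.38 to 11 CPM).

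MHet and MZKO, from -/- females, were compared with Het and ZKO, from +/- females, in edgeR's quasi-likelihood test. The fit used all 15 pools of 5 dpf. Genes with a Benjamini-Hochberg adjusted p below 0.01 that differed by more than 0.7 on the log2 scale, in either direction, were called DEGs. At this age 5 crystallins (cryaba, crybb2, crygm2a, crygs1 and crygs4) had too few counts to be tested. Crystallins fell broadly: 36 of the 46 tested were DEGs with lower expression in MHet and MZKO, among them cryaa, 9 of 12 beta and 26 of 32 gamma genes, against 2.85% of all genes tested. A single member, cryabb, was a DEG in the other direction, against 3.16% of all genes tested. It had 10 or more counts at 5 dpf in all MHet and MZKO pools and in WT replicate 2, but in no Het or ZKO pool. That cryabb was tested at 5 dpf thus rested on the groups where it was high, and its higher level is given as a description. The 36 lower DEGs include crygmxl1 and crygm7, whose test likewise needed groups where they were high. At 5 dpf crygm7 had 17, 5 and 5 counts in MHet and 8, 17 and 6 in MZKO. It had 25, 33 and 20 counts in ZKO and 24, 11 and 31 in Het. The lower levels of crygmxl1 and crygm7 are given as a description. The median log2 fold change was -0.85 in the beta class and -0.78 in the gamma class, and the median over all genes tested was near 0. Pools did not overlap between the sides for 32 members that were lower, against 6.82% of all genes tested. All 30 members with a mean of 100 CPM or more were lower with an adjusted p under 0.05, against 3919 of the 24846 genes tested. Of these 30 members, 25 were DEGs.

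Of the members with a mean above 10 CPM, the steepest was cryaa, at 2.61-fold lower in MHet and MZKO (log2 fold change -1.38 ± 0.08 SE, adjusted p = 1.04e-11 by edgeR). The beta gene crybb1l2 was 2.01-fold lower (-1.01 ± 0.08, adjusted p = 4.6e-09 by edgeR). In the gamma class, crygm2d15 (-0.89 ± 0.07), crygm2d11 (-0.87 ± 0.08), crygm2d5 (-0.78 ± 0.08) and crygm2d14 (-0.77 ± 0.07) had the smallest p among the DEGs. The gene crygm2d15 had 198, 174 and 219.5 CPM in MZKO and 232, 213 and 194 CPM in MHet, against 419, 356 and 335 CPM in ZKO and 364, 399.7 and 420.2 CPM in Het. The gene crygm2d14 had 151, 152 and 141 CPM in MZKO and 214, 181 and 199.8 CPM in MHet, against 335, 274 and 283 CPM in ZKO and 293, 302 and 273 CPM in Het. Neither gene had a pool that crossed between the female parents, and only in crygm2d14 were the MZKO and MHet pools separate. The range among those 30 members was narrow, from -1.02 in cryba2b to -0.52 in crygm2d6. Members at low counts spread further, down to -2.66 in crygmxl1, which had 0.102 to 0.23 CPM in MZKO and 0 to 0.248 CPM in MHet, against 0.698 to 1.19 CPM in ZKO and 0.639 to 1.59 CPM in Het. At 5 dpf it had at most 5 counts in any MHet or MZKO pool and at least 13 in every other pool. That crygmxl1 was tested thus rested on the groups where it was high, and its lower level is given as a description. The rise of cryabb, 2.17 on the log2 scale (SE 0.50, adjusted p = 0.0019 by edgeR), also rested on few reads: it had 0.645 to 0.867 CPM in MZKO and 0.519 to 0.843 CPM in MHet, against 0 to 0.15 CPM in ZKO and 0.155 to 0.295 CPM in Het, and its ZKO values were at or under the floor.

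The difference by female parent, which is also that by type of cross, was then read at each genotype of the larva. MZKO against ZKO gave 37 members lower, cryaa, 10 beta and 26 gamma genes, against 2.5% of all genes tested, and 1 member higher (cryabb), against 3.1%. The call of cryabb (2.83 ± 0.75, adjusted p = 0.0076 by edgeR) was lost without any 1 of the 6 pools compared, with adjusted p of 0.016 to 0.038. Here too cryabb was tested only through pools where it was high, and its value is given as a description. The class medians were -1.07 for beta and -1.01 for gamma, and cryaa was at -1.31 ± 0.11 (SE). Examples were crybb1l2 (-1.30 ± 0.12), crygm2d11 (-1.25 ± 0.11) and cryba1b (-1.16 ± 0.12). The beta gene cryba1b had 431, 421 and 354 CPM in MZKO, against 981, 725 and 991 CPM in ZKO. MHet against Het gave 9 members lower, against 1.93% of all genes tested: cryaa, crybb1l2, crybb1l1, cryba2b, cryba1l2, crygm2d15, crygm2e, crygm2b and crygmxl1. Of these, crygmxl1 was tested only through groups where it was high, and its value is given as a description. Here the medians were -0.67 for beta and -0.54 for gamma, and most members lay short of the fold threshold. When each of the 6 pools was left out in turn, cryaa, cryba1l2, cryba2b, crybb1l1 and crygm2d15 were called in 6 of 6 fits, crygmxl1 in 4, crybb1l2 in 3, crygm2e in 2 and crygm2b in 1. The value of crybb1l2 (-0.72 ± 0.11) moved inside the fold threshold without Het replicate 1 (-0.64), MHet replicate 2 (-0.67) or MHet replicate 3 (-0.69). With an adjusted p under 0.05 and no fold threshold, 30 members were lower, against 8.76% of all genes tested. In this comparison cryaa was again the steepest of the members above 10 CPM, at -1.46 ± 0.11, followed by cryba1l2 (-1.14 ± 0.17) and crygm2d15 (-0.88 ± 0.10). These comparisons share the fit of the 15 pools, and MZKO against ZKO has no pool in common with MHet against Het.

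**Figure D3:**
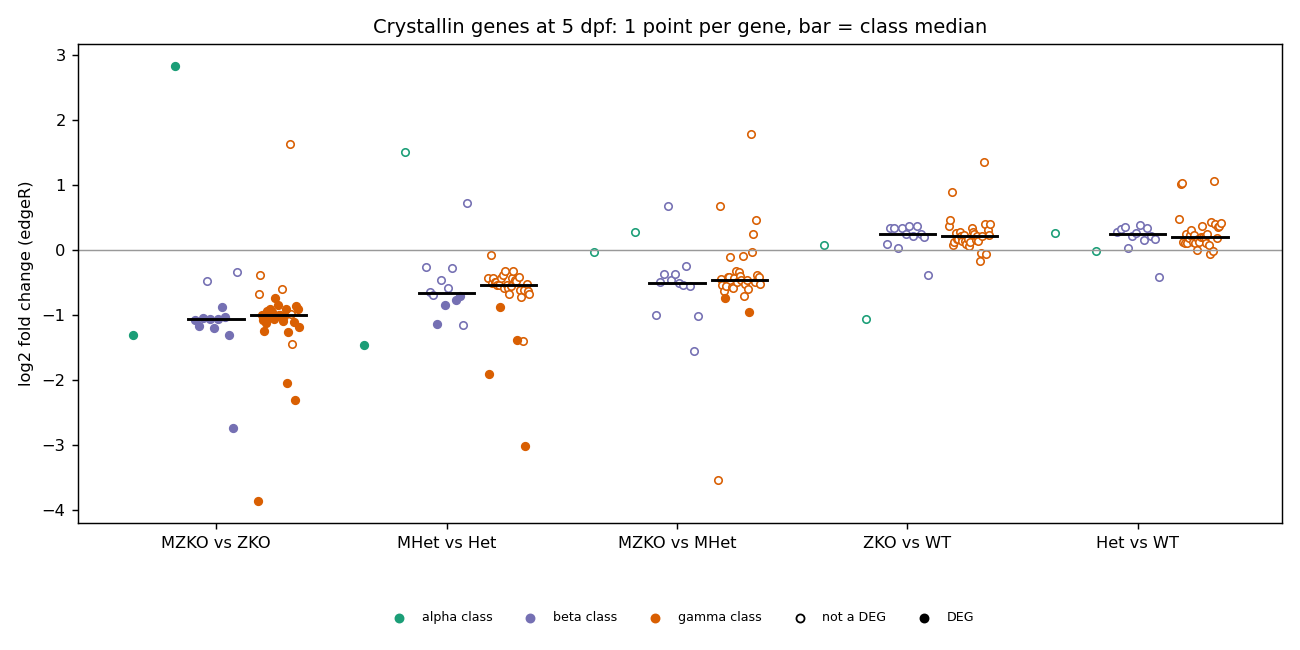
Log2 fold change of each crystallin gene in 5 comparisons at 5 dpf, 1 point per gene, coloured by class. Filled points are DEGs and black bars are the medians of the beta and gamma classes. The medians lie at -1.07 and -1.01 for MZKO against ZKO, -0.67 and -0.54 for MHet against Het and -0.50 and -0.46 for MZKO against MHet, and slightly above 0 for ZKO and Het against WT.

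The larva's own genotype was then compared within each kind of cross. Among larvae of -/- females at 5 dpf, MZKO had lower levels than MHet in 40 of 46 members, against 12842 of the 24846 genes tested. The medians were -0.50 in the beta class and -0.46 in the gamma class, which is short of the fold threshold. Only crygm2d11 and crygm2f were DEGs, against 0.302% of all genes tested. At an adjusted p under 0.05, 20 members were lower, 7 beta and 13 gamma genes, against 4.34% of all genes tested, and cryba1l2 was higher. The gene crygm2d11 had 158, 162 and 163 CPM in MZKO and 286, 245 and 271 CPM in MHet, a 1.67-fold lower level (-0.74 ± 0.11 SE, adjusted p = 0.00029 by edgeR). The DEG call of crygm2f (-0.96 ± 0.22 SE, adjusted p = 0.0079 by edgeR), at 1.97, 1.8 and 3.15 CPM in MZKO and 5.64, 3.82 and 3.87 CPM in MHet, was lost without MHet replicate 1, 2 or 3 and without MZKO replicate 1 or 2, with adjusted p of 0.012 to 0.09. Without MHet replicate 1 no member was called (crygm2d11 at -0.67), and without MHet replicate 3 or MZKO replicate 1 or 2 crygm2d11 alone was called. In the beta class, crybb1l2 was at -0.55 ± 0.11 and crybb1 at -0.55 ± 0.11, with adjusted p = 0.0035 and 0.0022 by edgeR. The smallest differences of the 30 members with a mean of 100 CPM or more were those of crygm2d6 (-0.10), crygm2d15 (-0.12) and crybb1l1 (-0.25). Markers of other tissues were also below 0 in this comparison. The medians were -0.23 for 10 skeletal muscle genes (10 below 0, 7 at an unadjusted p under 0.05), -0.37 for 6 liver genes (6 below 0, 1 at that p), -0.26 for 6 red blood cell genes (6 below 0, 0 at that p) and -0.12 for 6 neuronal genes (6 below 0, 1 at that p), and none of these markers was a DEG by edgeR. Of all 24846 genes tested, 5888 were at that p. Their part in the crystallin values was not tested.

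In the alpha class no difference between MZKO and MHet passed the test. The level of cryaa differed by -0.03 ± 0.11 on the log2 scale (SE, adjusted p = 0.90 by edgeR), and that of cryabb by 0.27 ± 0.57. The beta gene cryba1l2 was opposite in sign to its class median. It had 19, 14.6 and 12.6 CPM in MZKO and 11, 7.38 and 10.5 CPM in MHet (0.67 ± 0.17, adjusted p = 0.018 by edgeR), while ZKO pools had 19.7 to 24.7 CPM and Het pools 18.6 to 23.8 CPM. Its neighbour crybb1l2 in the gene table was lower in MZKO than in MHet.

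Among larvae of +/- females, no crystallin was a DEG in ZKO against WT or in Het against WT by edgeR or by DESeq2. In ZKO against WT the DEGs were 0.547% of all genes tested by edgeR and 1.9% by DESeq2, and in Het against WT they were 0% by either tool. At an unadjusted p under 0.05 there were 14 of 46 members in ZKO against WT, against 18.6% of all genes tested, and 16 of 46 in Het against WT, against 12% of all genes tested. The values leaned upward: 41 of 46 members were above 0 in each comparison. Of the 24846 genes tested, 12599 were above 0 for ZKO and 12110 for Het. The medians were 0.25 (beta) and 0.21 (gamma) for ZKO and 0.24 (beta) and 0.20 (gamma) for Het, and both comparisons share the WT pools. Markers of other tissues also leaned. For ZKO and Het, medians were 0.22 and 0.20 in 10 skeletal muscle genes and 0.25 and 0.17 in 6 neuronal genes, all above 0. Those of 15 lens fibre genes were 0.13 and 0.28. The 6 liver genes were all below 0 (-1.35 and -0.46), and 6 red blood cell genes had medians of -0.09 and -0.21. The part of these markers in the crystallin values was not tested. The smallest p in each was that of crygm2d5, at 0.34 ± 0.11 (SE) with adjusted p = 0.071 in ZKO and 0.37 ± 0.11 with adjusted p = 0.18 in Het by edgeR. The test of the difference, that is of MZKO minus MHet against ZKO minus Het, called no member a DEG by edgeR, against 0.31% of all genes tested, and DESeq2 called crygm2d11, against 1.4% of the genes to which it gave an adjusted p. At an unadjusted p under 0.05 there were 25 of 46 members, against 17.7% of all genes tested. At an adjusted p under 0.05, 3 members were lower, against 1.02% of all genes tested: crygm2d11 (-0.76 ± 0.16 SE, adjusted p = 0.015 by edgeR), crybb1 (-0.61 ± 0.15, adjusted p = 0.033) and crygm2d10 (-0.65 ± 0.16, adjusted p = 0.037).

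At 10 dpf no crystallin passed the DEG thresholds between MZKO and MHet. The test on the 6 pools of this age called 0 of 48 members by edgeR, against 0.0424% of all genes tested. At an unadjusted p under 0.05 there were 11 members, against 20.1% of all genes tested, a share near that of the members. DESeq2 called 5, against 2.93% of the genes to which it gave an adjusted p, of which crygm3 and crygs1 were higher and cryba1a, crybb1l3 and crygm2e lower in MZKO. Of these, crygs1 met the count rule only through MZKO pools, so its higher level there follows from how members were chosen. The class medians were -0.82 for alpha, with all 3 genes below 0, -0.04 for beta and 0.08 for gamma, and 24 members lay above 0 and 24 below. The gene crybb1l2 had 1954, 1796 and 1848 CPM in MZKO and 1984, 2458 and 1495 CPM in MHet, and crygm2d8 had 1316, 1481 and 1614 CPM in MZKO and 1174, 1606 and 1036 CPM in MHet. The groups overlapped in both. With an adjusted p under 0.05, crygm2e was lower, at 5.25, 6.7 and 8.11 CPM in MZKO and 15.3, 19.1 and 10.7 CPM in MHet (-1.18 ± 0.23 SE, adjusted p = 0.038 by edgeR). At the same level crygm3 was higher, at 3.47, 5.94 and 4.88 CPM in MZKO and 0.809, 1.47 and 0.327 CPM in MHet (2.4 ± 0.42, adjusted p = 0.03 by edgeR). At this age crygm3 had 76, 102 and 92 counts in MZKO and 15, 30 and 5 in MHet. That it was tested thus needed MZKO pools, where it was high, and its higher level is given as a description. The alpha gene cryaa had 71.5, 57.2 and 51 CPM in MZKO and 124, 133 and 60.6 CPM in MHet, which is -0.82 ± 0.31 with adjusted p = 0.22 by edgeR, and -1.10 with adjusted p = 0.019 without MHet replicate 3. In the lens-restricted cryaba, MZKO pools had 0.867, 0.116 and 0.424 CPM and MHet pools 0.809, 1.37 and 0.588 CPM, and the groups overlapped. Sums of markers of other tissues also stood apart at this age. The 6 liver markers summed to 304 to 632 CPM in MZKO and 1499 to 3702 CPM in MHet. The 8 red blood cell genes summed to 204 to 283 CPM in MZKO and 401 to 700.2 CPM in MHet. All 6 liver and 6 red blood cell genes tested were at an unadjusted p under 0.05 by edgeR. Of these, 0 liver and 2 red blood cell genes were at an adjusted p under 0.05, and none was a DEG. The medians were -0.31 for 10 skeletal muscle genes, all below 0, and 0.27 for 6 neuronal genes, all above 0. The part of these markers in the crystallin values was not tested.

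Most crystallins rose between 5 and 10 dpf in both genotypes. In MHet, 40 of 51 members were DEGs that rose, against 7.2% of all genes tested, with 0 that fell, and in MZKO 46 of 51 rose, against 8.08% of all genes tested, with 0 that fell. In MHet these were 2 alpha, 11 beta and 27 gamma genes, and in MZKO 1 alpha, 10 beta and 35 gamma genes. Of the 51 members, cryaba, crygm2a and crygs4 had met the count rule only through 10 dpf pools, so that a higher level at that age follows from how they were chosen, and without them 38 of 48 members rose in MHet and 44 of 48 in MZKO. These 44 still include crygs1, which needed MZKO pools of 10 dpf to meet the count rule. It had 7, 17 and 4 counts in MZKO at 5 dpf and 71, 50 and 8 at 10 dpf. The rise of crygs1 in MZKO is given as a description. Markers of other tissues also moved with age: 5 of 6 red blood cell genes fell in MHet and 6 of 6 in MZKO, with medians of -1.43 in MHet and -2.20 in MZKO, and 4 of 6 liver genes fell in MZKO and 0 in MHet, with medians of -2.12 in MZKO and -0.30 in MHet. Of the 25346 genes tested, 1702 fell as DEGs in MHet and 2763 in MZKO. The part of these markers in the crystallin values was not tested. The median log2 fold change was 1.16 for beta and 1.23 for gamma in MHet, and 1.53 for beta and 1.70 for gamma in MZKO. The largest increases were in gamma genes that were low at 5 dpf. At 5 dpf crygm2e had 0.578, 0.645 and 0.559 CPM in MZKO and 1.24, 0.545 and 0.897 CPM in MHet, and between the ages it rose by 3.47 ± 0.30 in MZKO and 4.05 ± 0.28 in MHet on the log2 scale (SE).

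Other gamma M genes with few counts at 5 dpf rose by similar amounts. At 10 dpf crygm2b had 5.79, 5.82 and 5.46 CPM in MZKO and 9.32, 10.3 and 5.29 CPM in MHet, against 0.457 to 0.578 CPM in MZKO and 0.142 to 0.595 CPM in MHet at 5 dpf. The gene crygm2c had 18.7, 19.2 and 24 CPM in MZKO and 19.5, 32.3 and 15 CPM in MHet at 10 dpf, against 1.17 to 2.4 CPM in MZKO and 1.86 to 3.12 CPM in MHet at 5 dpf. In both genes no 5 dpf pool reached a 10 dpf pool. The log2 increases in MZKO and MHet were 3.41 and 4.63 for crygm2b, 3.56 and 3.23 for crygm2c and 3.73 and 4.57 for crygm7. The gene crygm1 rose by 4.3 in MHet, and in MZKO it was seen with 0 to 0.0508 CPM at 5 dpf and 5.2 to 8.21 CPM at 10 dpf. The gene crygm2a had 0 counts in all MZKO pools at 5 dpf and 0.954 to 1.51 CPM in MZKO at 10 dpf, which is given as a description for the reason above. The gamma N gene crygn1 had 43.8, 45.8 and 38.2 CPM in MZKO and 32.1, 35.9 and 19.3 CPM in MHet at 10 dpf, against 5.88, 5.34 and 4.57 CPM in MZKO and 7.1, 6.84 and 7.03 CPM in MHet at 5 dpf, and rose by 3.01 ± 0.20 in MZKO and 2.06 ± 0.19 in MHet. The 30 members with a mean of 100 CPM or more, of which 25 rose in MHet and 30 in MZKO, ranged in MHet from 0.51 in crygm2d5 to 1.53 in crygm2d12. In MZKO they ranged from 1.15 in crybb1l1 to 1.85 in crygm2d12.

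Of the alpha genes, cryaa rose in MHet by 1.99 ± 0.23 and in MZKO by 1.20 ± 0.22 on the log2 scale (SE), with adjusted p = 4.9e-06 and 0.0004 by edgeR. The gene cryaba was at 0 to 0.138 CPM in MZKO and 0 to 0.133 CPM in MHet at 5 dpf, at or under the floor, and at 10 dpf it had 0.116 to 0.867 CPM in MZKO and 0.588 to 1.37 CPM in MHet, and nothing was read from its change with age, since it was chosen through the later pools. No change passed the test for cryabb, at 0.05 ± 0.53 in MZKO and 0.77 ± 0.53 in MHet. The beta genes crybb2 and crybb3 were not DEGs in either genotype and had at most 0.799 CPM in MZKO and MHet pools.

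**Figure D4:**
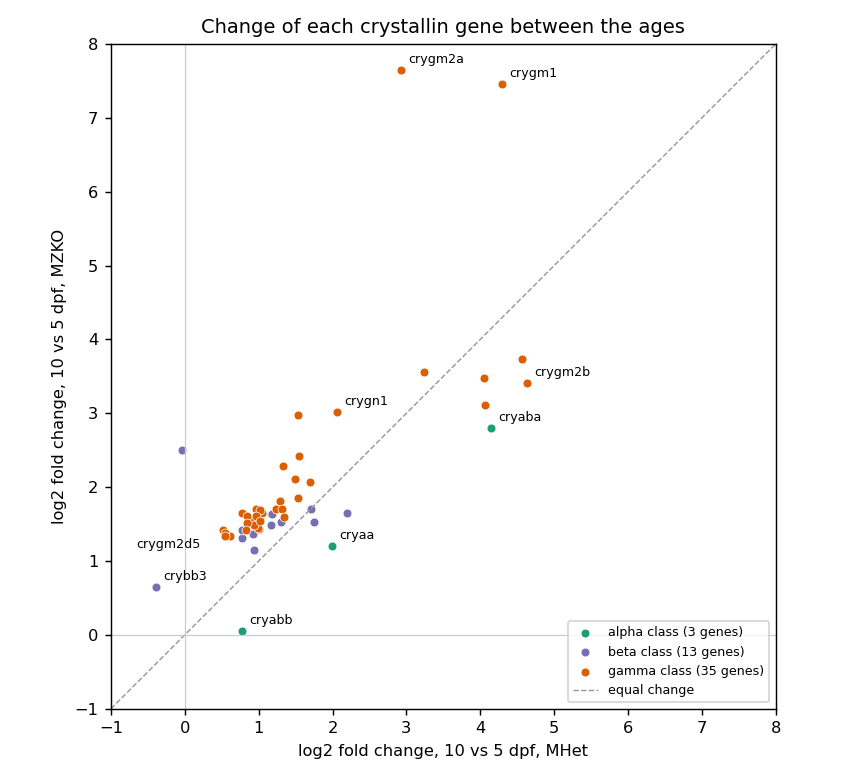
Log2 fold change between 10 and 5 dpf of each of the 51 crystallin genes in MHet (horizontal axis) and MZKO (vertical axis), coloured by class, with the line of equal change. Most beta and gamma genes lie above the line and the 3 alpha genes lie below it. The values of crygm2a and crygm1 in MZKO rest on 0 or nearly 0 counts at 5 dpf.

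Whether the 2 genotypes differed in their change with age was tested as an interaction. Of the members, crygm2d5 alone was a DEG, higher in MZKO relative to MHet at 10 than at 5 dpf (0.91 ± 0.19 SE, adjusted p = 0.0027 by edgeR), against 1.35% of all genes tested. It had 1264, 1289.5 and 1522 CPM in MZKO and 934, 1248 and 811 CPM in MHet at 10 dpf, against 504, 556 and 457 CPM in MZKO and 719, 623 and 756 CPM in MHet at 5 dpf, so MZKO pools were all lower at the first age and all higher at the second. At an adjusted p under 0.05, 12 members were positive, against 6.65% of all genes tested: cryba2a, crygm2d5, crygm2d7, crygm2d9, crygm2d10, crygm2d11, crygm2d14, crygm2d15, crygm2d18, crygm2d20, crygmxl2 and crygn1. The class medians were 0.45 for beta and 0.63 for gamma. The number of DEGs was 14 without MHet replicate 2 of 10 dpf and 0 without MHet replicate 1 of either age, and DESeq2 called 7, against 7.36% of the genes to which it gave an adjusted p. The share of all genes called without MHet replicate 2 of 10 dpf is not given here, so nothing is read from the 14. The value of cryaa was -0.79 ± 0.31 (adjusted p = 0.10 by edgeR), opposite in sign to both class medians, and it was called at -1.07 (adjusted p = 0.001) without MHet replicate 3 of 10 dpf. The ages are also the batches, so this test holds for age only if the batch acted alike on both genotypes. Larvae kept to 10 dpf were also housed by genotype, and housing cannot be told apart from own genotype in this test.

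Members at the edge of the counting rule carried few reads. Just inside it were cryaba and crygs1, each with 10 or more counts in 3 samples, crygs4 in 4, crygm2a and crybb2 in 5 and crybb3 in 6. Just outside were crygs2, with 41 and 21 counts in MZKO pools at 10 dpf, and crygm4, crygm6 and crygs3, which had at most 9, 8 and 5 counts in any sample. The gamma S gene crygs1 had 3.24, 2.91 and 0.424 CPM in MZKO at 10 dpf, against at most 0.196 CPM in MHet of that age. At 5 dpf it had 0.337, 0.783 and 0.203 CPM in MZKO, at most 0.0991 CPM in MHet and at most 0.263 CPM in the other groups. It met the count rule only through MZKO pools, so its higher level there follows from how members were chosen and is given as a description.

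Other lens genes were read beside the crystallins to see whether the rest of the lens moved with them. Of the listed lens fibre genes other than crystallins, which include membrane channels, gap junction proteins and beaded filament proteins, 15 were tested. In MHet and MZKO against Het and ZKO, 12 of these were DEGs that fell and 0 rose, against 2.85% and 3.16% of all genes tested. Their median log2 fold change was -0.84, close to the crystallin medians. Among them were lim2.4 of the lens membrane protein family (-1.02 ± 0.09 SE), the lens galectin grifin (-1.07 ± 0.12), the beaded filament gene bfsp2 (-0.83 ± 0.08) and lim2.5 (-0.88 ± 0.11). The summed level of the list was 275 to 346 CPM in MZKO and 288 to 356 CPM in MHet, against 487 to 690.3 CPM in ZKO, 556 to 676 CPM in Het and 511 to 520.0 CPM in WT at 5 dpf. The level separated the larvae by female parent.

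Between MZKO and MHet at 5 dpf, none of the 15 lens fibre genes was a DEG by edgeR. At an unadjusted p under 0.05 there were 4, against 5888 of the 24846 genes tested. The median was -0.10, against -0.50 and -0.46 in the beta and gamma crystallins. Of the 15 genes, 11 were below 0 and 4 above, against 12842 below 0 of the 24846 genes tested. They ranged from -0.51 in grifin to 0.47 in birc7. The mean of bfsp2 was 76.6 ± 5.15 CPM in MZKO and 72.8 ± 10.8 CPM in MHet (SD, n = 3 each), and that of lim2.4 was 37.2 ± 5.03 CPM in MZKO and 43.5 ± 4.56 CPM in MHet. The difference between these lists was not tested. At 10 dpf the list again had no DEG between MZKO and MHet, with a median of -0.40, and summed to 661 to 683 CPM in MZKO and to 462, 898 and 950.5 CPM in MHet, the lowest value being that of MHet replicate 3. At this age 12 of the 15 were below 0 and 3 above, against 11459 below 0 of the 23597 genes tested. At an unadjusted p under 0.05 by edgeR there were 6, against 4746 of the 23597 genes tested. Between the ages, 12 of the 15 rose and 0 fell in MHet, and 9 rose and 1 fell in MZKO. Of the 25346 genes tested, 1825 rose and 1702 fell as DEGs in MHet, and 2048 rose and 2763 fell in MZKO.

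**Figure D5:**
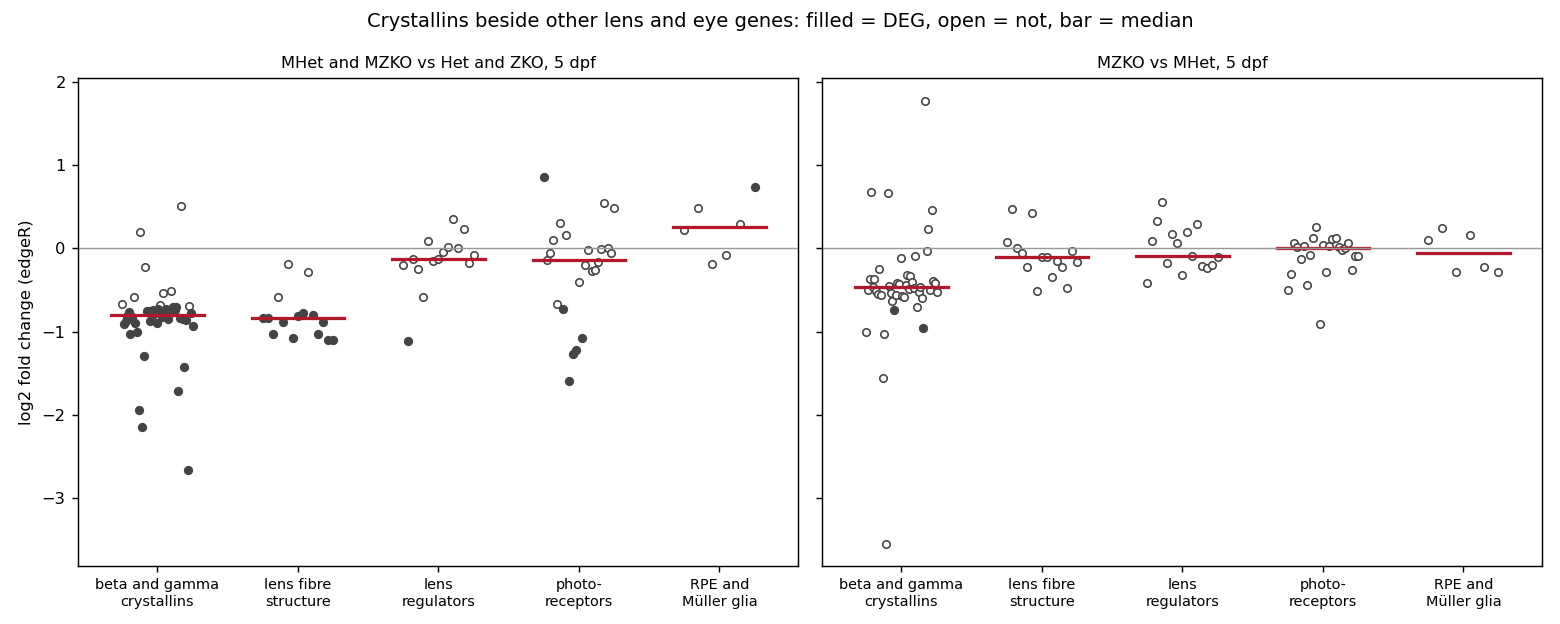
Log2 fold change of beta and gamma crystallins, other lens fibre genes, lens transcription regulators, photoreceptor genes and genes of the retinal pigment epithelium (RPE) and Müller glia at 5 dpf, 1 point per gene. The left panel compares MHet and MZKO with Het and ZKO and the right panel MZKO with MHet, filled points are DEGs and bars are medians. On the left, lens fibre genes (median -0.84) lie with the crystallins, and on the right their median is -0.10.

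Regulators of lens development formed the next list. Of 15 tested genes of this list, which holds transcription factors such as pax6a, pax6b, prox1a and foxe3, 1 fell and 0 rose in MHet and MZKO against Het and ZKO, with a median of -0.13. Of all genes tested, 2.85% fell and 3.16% rose. The one that fell was hsf4, a heat shock factor of the lens (-1.12 ± 0.23 SE, adjusted p = 0.00078 by edgeR), at 1.42 ± 0.523 CPM in MZKO and 1.33 ± 0.051 CPM in MHet, against 3.17 ± 1.23 CPM in ZKO and 2.84 ± 0.961 CPM in Het (SD, n = 3 each). In MZKO against MHet at 5 dpf no regulator was a DEG by edgeR. At an unadjusted p under 0.05 there were 6 of 15, against 5888 of the 24846 genes tested. Of the remaining genes with a beta-gamma crystallin domain, 3 were tested. In MHet and MZKO against Het and ZKO, crybg1a (0.55 ± 0.08) and crybg1b (0.17 ± 0.08) were above 0 and not DEGs. The gene crybgx fell (-1.11 ± 0.12), at 68.6 ± 14.2 CPM in MZKO and 106 ± 10.3 CPM in MHet, against 181 ± 35.6 CPM in ZKO and 189 ± 26.7 CPM in Het (SD, n = 3 each). Of the other small heat shock proteins, the wider family of the alpha-crystallins, 0 of 9 tested were DEGs in this comparison by edgeR.

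Retinal genes were read in the comparison by female parent as well. Of 23 photoreceptor genes tested, 5 fell and 1 rose, against 2.85% and 3.16% of all genes tested, with a median of -0.14 over the list. The cone opsins opn1lw2 (-1.59 ± 0.06 SE), opn1sw2 (-1.07 ± 0.07) and opn1mw1 (-1.27 ± 0.08) fell, and the cone arrestin arr3a rose (0.86 ± 0.06). The summed photoreceptor level was 7658 to 8189.6 CPM in MZKO and 8395 to 8738 CPM in MHet, against 10199.7 to 11381 CPM in ZKO and 10246 to 11575 CPM in Het. In the list of RPE and Müller glia genes, rpe65a rose (0.73 ± 0.09) and 0 of 6 fell. Markers of other tissues had medians of -0.16 (10 skeletal muscle genes, 1 fell), -0.28 (6 neuronal genes, none a DEG), 0.19 (6 liver genes, 1 rose) and -0.14 (6 red blood cell genes, none a DEG). Whether eye size or the make-up of the larvae had a part in the crystallin levels was not tested.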

How the data were processed

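Polyadenylated RNA of 21 pools of whole larvae was sequenced from directional libraries. Per the labels and the study's methods, the first 10 bases of reads were trimmed, reads with a Phred score under 20 were removed, and reads were aligned with HISAT2 to GRCz11 (danRer11), sorted with SAMtools and counted with featureCounts on the Lawson Lab annotation, version 4.3.2. Trim Galore and DESeq2 are also named in the submitters' processing notes. The deposited values are raw counts of reads per gene, not normalized. How the counting treated strand and reads with several matches is not given in the sources used here.

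From these counts, edgeR 4.0.16 in R 4.3.3 was used (filterByExpr, TMM, robust quasi-likelihood fit, Benjamini-Hochberg adjustment over all genes tested). Comparisons at 5 dpf were fitted on 15 pools (24846 genes), at 10 dpf on 6 pools (23597 genes) and between ages on 21 pools (25346 genes). DEGs were genes with an adjusted p below 0.01 that differed by more than 0.7 on the log2 scale. CPM used TMM factors over all 21 pools, and the SE of a log2 fold change was its size over the root of the F statistic. DESeq2 1.42.0 and other settings were alternatives. Nothing states that pools of 1 group came from separate parents, so p-values measure the spread between pools.

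The members and gene lists were chosen with earlier results of these data known. Values per pool were given for each alpha gene, the 3 beta and 3 gamma genes of highest mean CPM and up to 6 DEGs of smallest p per comparison, with classes' extremes and genes at the edge of the count rule also named, and up to 4 DEGs per other list. Gene order came from a RefSeq table of GRCz12tu, used for neighbours only. No sequence was used here.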

Additional observations from a re-analysis of the deposited data

Results flagged for a closer look

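The change of crygm2d5 with age was the only one among the 51 members called different between the genotypes of the larvae. That is 1.96% of the members, near the 1.35% of all genes tested. By the interaction test in edgeR, the log2 difference of MZKO minus MHet was higher by 0.91 at 10 than at 5 dpf (SE 0.19, adjusted p = 0.0027), with all MZKO pools below all MHet pools at 5 dpf, and MZKO at 1264 to 1522 CPM against MHet at 811 to 1248 CPM at 10 dpf. The call was lost without MHet replicate 1 of either age, and the ages are also the batches. Larvae kept to 10 dpf were also housed by genotype. As a close copy of other crygm2d genes, its own share of their reads is uncertain.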

How the results depend on the processing

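Counts of crystallin DEGs stayed within 1.5 times of the reported value under all alternatives run for ZKO against WT and Het against WT (0), MHet and MZKO against Het and ZKO (37, range 28 to 38 when 1 replicate was left out), MZKO against ZKO (38, range 31 to 38) and for 10 against 5 dpf in MHet (40, range 31 to 42) and MZKO (46, range 43 to 46). With an adjusted p under 0.05 and no fold threshold, MHet against Het gave 30 in place of 9 (6 to 13 when 1 replicate was left out), MZKO against MHet 21 in place of 2 at 5 dpf and 2 in place of 0 at 10 dpf, the interaction of female parent and own genotype 3 in place of 0, and that of age and own genotype 12 in place of 1. DESeq2 gave 4 for MZKO against MHet at 5 dpf (cryba1a, crygm2d7, crygm2d11 and crygm2f), 5 at 10 dpf, 1 for the interaction of female parent and own genotype and 7 for that of age and own genotype. The share of all genes that DESeq2 called for MZKO against MHet at 5 dpf is not given here, so nothing is read from the 4. With no filter on low counts the interaction of female parent and own genotype gave 1 and MZKO against MHet at 10 dpf gave 2, and with only the groups compared in the fit that interaction gave 1. With all 21 pools in 1 fit, MZKO against MHet gave 1 at 5 dpf and 3 at 10 dpf. With a replicate left out, MZKO against MHet ranged from 0 to 3 at 5 dpf and from 0 to 1 at 10 dpf (crygm3 without MHet replicate 2, crygs1 without MZKO replicate 3), and the interaction of age and own genotype from 0 to 14. That interaction gave 2 without MHet replicate 2, MZKO replicate 2 or MZKO replicate 3 of 5 dpf or MHet replicate 3 of 10 dpf. The shares of all genes called with a replicate left out are not given here. Nothing is read from these ranges beyond how far the counts moved. The reported counts of 37 and 38 include cryabb, which was tested at 5 dpf only through groups where it was high. The same holds for crygmxl1 in the 9 of MHet against Het. The 37 also include crygmxl1 and crygm7, whose test needed groups where they were high. At 10 dpf crygs1, which met the count rule only through MZKO pools, was among the DESeq2 calls. It was also among those with all 21 pools in 1 fit and was the call without MZKO replicate 3. In the reported fit at 10 dpf the test of crygm3 likewise needed MZKO pools, where it was high. The causes were not tested.

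Pools with the same replicate number had correlated deviations of -0.10 to 0.15 over 30 pairs at 5 dpf and -0.16 to 0.11 over 3 pairs at 10 dpf. The labels do not say what the numbers mean. With 3 pools per group, this check cannot exclude that pools of the same number shared parents or handling. With the replicate number as a block, MZKO against MHet gave 1 DEG at 5 dpf and 1 at 10 dpf, and MZKO against ZKO gave 35. Of 1719 single-gene values under alternatives, 1669 kept their side of the threshold, 31 lost and 19 gained it. None changed sign where the gene was a DEG in the reported or the alternative fit. Changes of sign in genes that were not called were not counted. Where DESeq2 gave no adjusted p, the gene was not judged. The fit of only the groups compared was not run at 10 dpf, where it is the reported fit. With 3 pools per group, members with few reads, such as cryabb, cryaba and crygs1, limit what the depth can show.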
